A study of Homo sapiens with 9 samples.

Results

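ESM1, the gene of the secreted proteoglycan endocan, was followed together with 8 genes of the vascular endothelial growth factor (VEGF) pathway or its surroundings in ES-2 cells depleted of IGF2BP1 or SRF. These 9 genes were found by their symbol among the 58174 genes of the expression tables, 19799 of which are protein-coding. ESM1 was chosen by its measured change, the largest among genes that went opposite ways in both knockdowns, so its values are a description and carry no test. The other genes comprise the ligands VEGFA, VEGFB and VEGFC, the receptors KDR and FLT1, the co-receptors NRP1 and NRP2, and ANGPTL4, which is neither a VEGF ligand nor a VEGF receptor. No reason for the inclusion of ANGPTL4 was recorded, so its change may have been known when it was chosen and its tests are not independent evidence.

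VEGF ligands are secreted dimers that bind receptor tyrosine kinases on endothelial cells. VEGFA signals mainly through KDR and is also captured by FLT1, VEGFB binds FLT1, and VEGFC drives the growth of lymphatic vessels through FLT4 and, once processed, KDR. Neuropilins lack a kinase domain and bind both VEGF ligands and class 3 semaphorins. Endocan is a dermatan sulfate proteoglycan released by activated endothelial cells and by several tumors, and its gene is induced by VEGFA in endothelium. In ovarian carcinoma, tumor cells release VEGFA, which raises vessel permeability and contributes to ascites.

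ES-2 is an established cell line from an ovarian carcinoma. Cells received control siRNA (siC), a pool of siRNAs against IGF2BP1 (siIGF2BP1) or a pool against SRF (siSRF) and were harvested 72 h later, and their total RNA without ribosomal RNA was sequenced in 3 libraries per group. IGF2BP1 is an RNA-binding protein that stabilizes target mRNAs, and SRF is a transcription factor that binds CArG box elements. All libraries came from parental ES-2 cells with no other modification named in the labels, and nothing in the labels says whether the 3 libraries of a group came from separate cultures, so that p-values measure only the spread between these libraries.

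The libraries held 6421764 to 9416175 reads on genes. Levels are given as FPKM (fragments per kilobase of gene, scaled to library size). Comparing different genes by FPKM rests on the gene lengths of the authors. Those of the 9 genes ran from 1545 bases (VEGFB) to 14431 bases (VEGFA). The IGF2BP1 mRNA was at 12.8 ± 0.689 FPKM in siC and 4.11 ± 0.0846 FPKM in siIGF2BP1 (SD, n = 3 each). The SRF mRNA was at 14.5 ± 1.28 FPKM in siC and 1.47 ± 0.145 FPKM in siSRF, and at 6.01 ± 0.714 FPKM in siIGF2BP1 (SD over 3 libraries), so SRF was low in both knockdowns. Among 11 markers of ovarian surface and Müllerian epithelium, MUC16 had no read in any library, and EPCAM and CDH1 were below 0.1 FPKM, whereas KRT7, KRT18 and KRT8 carried 97.9% of the summed level. The summed level of this list was between 154 and 167 FPKM in the siC libraries, 195 and 224 FPKM with siIGF2BP1, and 219 and 225 FPKM with siSRF. By limma-trend, 2 of its genes were higher and none lower in each knockdown, where 7.12% (siIGF2BP1) and 12.2% (siSRF) of all genes were called. At an unadjusted p under 0.05, 0 genes were lower in siIGF2BP1 and 1 in siSRF, and limma-voom called 1 lower gene in each. The part of these markers in the results was not tested.

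The ESM1 mRNA was nearly lost upon depletion of IGF2BP1 and rose upon depletion of SRF. ESM1 (ENSG00000164283) lies on the minus strand at chr5:54977867-55022671 (GRCh38, GENCODE annotation). It was at 13.4, 13.9 and 12.5 FPKM in the siC libraries, at 0.629, 1.12 and 0.569 FPKM in the siIGF2BP1 libraries, and at 41.6, 44.7 and 42.5 FPKM in the siSRF libraries. The 3 groups did not overlap, and the mean was at 5.82% of siC in siIGF2BP1 and at 324% of siC in siSRF. The siIGF2BP1 values rest on 13, 22 and 13 reads, those of siC on 238, 255 and 244 reads, and those of siSRF on 800, 1099 and 845 reads. From the summed reads, ESM1 was 17.4-fold lower in siIGF2BP1 than in siC (95% exact counting interval 13.0 to 23.9) and 3.25-fold higher in siSRF than in siC (3.0 to 3.53). These intervals cover counting error only, as do all intervals and limits from reads given here. In bulk RNA, fewer cells that express a gene and less of its RNA per cell cannot be told apart.

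**Figure D1:**
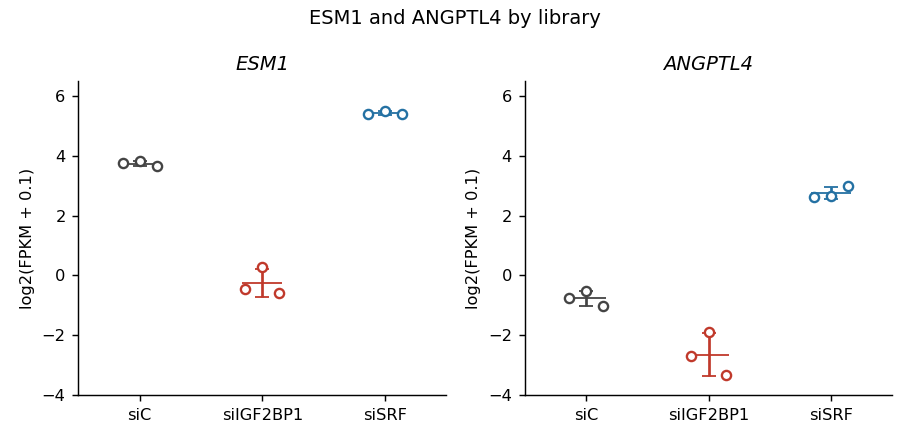
Levels of ESM1 and ANGPTL4 in each library on the scale of log2(FPKM + 0.1), with circles for the 3 libraries of siC, siIGF2BP1 and siSRF, horizontal bars for the group means and error bars for the SD. Both genes are lowest in siIGF2BP1 and highest in siSRF, and no library of one group overlaps with another group.

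On the scale of log2(FPKM + 0.1), the ESM1 difference was -3.99 for siIGF2BP1 against siC, 1.69 for siSRF against siC, and -5.68 for siIGF2BP1 against siSRF. Among the 256 genes that passed the test in both knockdowns in opposite directions, the next after ESM1 by the size of the difference between the knockdowns was VIPR1, the receptor of vasoactive intestinal peptide, at 5.08 and with the opposite signs of ESM1. By level, ESM1 was above 84.2% of all protein-coding genes in siC, above 45.7% of them in siIGF2BP1 and above 95.4% in siSRF. By FPKM, which rests on the authors' gene lengths, it was thus second to NRP1 among the 9 genes in siC, sixth in siIGF2BP1 and first in siSRF.

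ESM1 and ANGPTL4 spanned the widest range of the 9 genes, in the same order of groups, and the bases just before the RefSeq transcription starts of both genes are shown for that reason. Capitals mark TATAAA and ACGTG, the core of hypoxia response elements. The ESM1 stretch (GRCh38.p14, minus strand, chr5:54985596-54985625) begins 32 bases before the start, and the ANGPTL4 stretch (plus strand, chr19:8364125-8364154) begins 30 bases before it. In GENCODE, the ESM1 stretch lies within an untranslated exon of a longer ESM1 transcript, and the ANGPTL4 stretch lies within the gene between exons of longer transcripts, so that neither is upstream of all annotated starts.
ESM1: TATAAAactcataaACGTGtaggcagaggc
ANGPTL4: tTATAAAaaccgtcctcgggcgcggcgggg
The 250 bases before the start were searched on both strands for 7 of the 9 genes, VEGFA and NRP1 not being in the RefSeq table used. TATAAA was found for ESM1, ANGPTL4 and FLT1, and in 10.7% of 35116 promoters of the same length. ACGTG was found for ESM1, and at 234 bases before the start for ANGPTL4, and in 18.5% of all promoters. The CArG box bound by SRF was found in none of the 7 windows and in 1.16% of all promoters. TGANTCA, the motif of AP-1 factors, was also in none of the 7 and in 6.57% of all, and GGAA, the short core of ETS factor sites, was in all 7 and in 92.7% of all promoters. A match is a description of the letters, and its absence says nothing about binding elsewhere.

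Among the ligands, VEGFA was lower in siSRF, and VEGFC was lower in siIGF2BP1 than in siSRF. VEGFA, the main angiogenic ligand (ENSG00000112715, chr6:43770184-43786487, plus strand), was at 6.15, 6.12 and 6.25 FPKM in siC, at 6.56, 6.38 and 6.39 FPKM in siIGF2BP1, and at 3.30, 3.79 and 3.58 FPKM in siSRF. The siSRF libraries were all below the others, at 57.7% of the siC mean, whereas the siIGF2BP1 libraries were just above siC, at 104% of its mean. The difference of siSRF against siC was -0.78 on the log2 scale (standard error 0.08, limma adjusted p = 0.00149). For siIGF2BP1 against siC it was 0.06 (95% interval -0.08 to 0.21, limma adjusted p = 0.551). The direct difference of siIGF2BP1 against siSRF was 0.84 (standard error 0.08, limma adjusted p = 0.00046).

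VEGFB, a ligand of FLT1 linked to metabolism in heart and muscle (ENSG00000173511, chr11:64234584-64239264, plus strand), varied most of the 3 ligands among libraries of one group. The siC libraries had 12.4, 11.7 and 8.23 FPKM, those with siIGF2BP1 14.1, 10.7 and 11.4 FPKM, and those with siSRF 9.98, 6.39 and 7.90 FPKM. Both knockdowns overlapped with siC, and the coefficient of variation within the groups was between 14.8% and 22.3%. The log2 differences were 0.17 in siIGF2BP1 (95% interval -0.26 to 0.61) and -0.41 in siSRF (-0.93 to 0.10), with limma adjusted p-values of 0.580 and 0.230 against siC. All siIGF2BP1 libraries were above all siSRF libraries, but the difference of 0.59 (0.15 to 1.02) missed the threshold with a limma adjusted p of 0.0514.

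VEGFC, the lymphangiogenic ligand (ENSG00000150630, chr4:176683538-176792922, minus strand), was at 12.2, 11.9 and 11.0 FPKM in siC, at 8.78, 9.29 and 8.78 FPKM in siIGF2BP1, and at 13.0, 13.9 and 15.2 FPKM in siSRF. The 3 groups did not overlap, with the order siIGF2BP1, siC, siSRF that ESM1 also had, within a much narrower range. The log2 difference was -0.38 in siIGF2BP1 (standard error 0.06, limma adjusted p = 0.0111) and 0.26 in siSRF (standard error 0.08, limma adjusted p = 0.0556), neither of which passed the threshold of 0.01 against siC. In siIGF2BP1, VEGFC passed it with a minimum of 1 FPKM (limma adjusted p = 0.0074) and in a fit over all 9 libraries (limma adjusted p = 0.00589). The difference between the knockdowns passed it, at -0.64 (standard error 0.07, limma adjusted p = 0.000917).

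**Figure D2:**
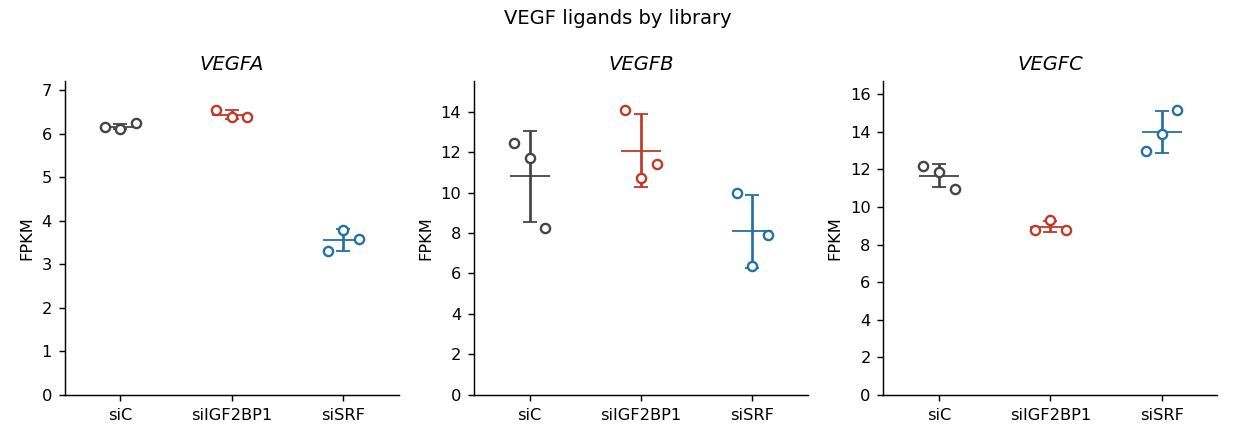
FPKM of the ligands VEGFA, VEGFB and VEGFC in each library, with circles for the 3 libraries of a group, horizontal bars for means and error bars for the SD, on axes that begin at 0. VEGFA is low in siSRF alone, VEGFB overlaps between each knockdown and siC, and VEGFC is lowest in siIGF2BP1 and highest in siSRF.

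Since VEGFA and VEGFC went apart, their proportion differed between the groups. The ratio of VEGFA to VEGFC was 0.530 ± 0.0349 in siC, 0.721 ± 0.0305 in siIGF2BP1 and 0.255 ± 0.0189 in siSRF (SD, n = 3 each). No group overlapped with another in this ratio (two-sided exact permutation test, p = 0.1 for each pair, which is as low as this test can go with 3 libraries per group). The levels of the 3 ligands, VEGFB included, summed to 28.6 ± 2.83, 27.5 ± 1.71 and 25.7 ± 1.41 FPKM in siC, siIGF2BP1 and siSRF, with overlapping groups (exact permutation p = 0.6 for siIGF2BP1 and 0.3 for siSRF against siC). As the gene length of VEGFA is 14431 bases, against 2420 for VEGFC and 1545 for VEGFB, this sum weights each VEGFA read less. Of the other ligands, PGF had means of 1.12 ± 0.220, 1.10 ± 0.114 and 1.34 ± 0.176 FPKM in siC, siIGF2BP1 and siSRF (SD, n = 3 each, limma adjusted p = 0.979 and 0.478), and VEGFD had 4 reads in all 9 libraries.

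The receptor kinases were scarcely detected in ES-2 cells. KDR, the main signalling receptor of VEGFA (ENSG00000128052, chr4:55078481-55125595, minus strand), had 0.169, 0.118 and 0.0884 FPKM with siC, 0.104, 0.0657 and 0.132 FPKM with siIGF2BP1, and 0.157, 0.158 and 0.0650 FPKM with siSRF. These values stand for 3 to 9 reads per library, and all groups overlapped. The summed reads gave a ratio of 0.825 for siIGF2BP1 to siC (95% exact counting interval 0.380 to 1.78) and of 1.04 for siSRF to siC (0.505 to 2.16), so that a change within these bounds was not detectable at this depth. FLT1, which binds VEGFA and VEGFB (ENSG00000102755, chr13:28300346-28495145, minus strand), had at most 1 read in each library. It was below the floor of 3 reads, which corresponds to between 0.0262 and 0.0362 FPKM of FLT1 depending on the library, so no fold is given, and it was below the filter of a mean of 0.1 FPKM for the test. FLT4, the receptor of VEGFC, had no read in any library.

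The co-receptor NRP1 was higher in both knockdowns than in siC. NRP1 (ENSG00000099250, chr10:33177492-33336262, minus strand) was at 25.1, 25.3 and 26.2 FPKM in siC, at 31.1, 30.4 and 30.8 FPKM in siIGF2BP1, and at 30.0, 30.6 and 29.6 FPKM in siSRF. Every knockdown library was above every siC library, and the knockdowns overlapped with each other. The log2 difference was 0.27 in siIGF2BP1 (standard error 0.04, limma adjusted p = 0.00725) and 0.23 in siSRF (standard error 0.04, limma adjusted p = 0.00771). Both calls were lost whichever library was left out. The limma adjusted p-values were then between 0.0173 and 0.0370 for siIGF2BP1 and between 0.0134 and 0.0385 for siSRF. The differences stayed between 0.26 and 0.29 and between 0.22 and 0.25. Over all genes, leaving out a library lowered the share called from 7.12% to between 1.97% and 3.31% in siIGF2BP1. In siSRF this share fell from 12.2% to between 4.33% and 8.22%. Removing trends along GC content and length, an alternative chosen after values were seen, also ended the call in siIGF2BP1 (log2 difference 0.19, limma adjusted p = 0.0146). Between the knockdowns the difference was 0.04 (95% interval -0.05 to 0.12, limma adjusted p = 0.475).

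NRP2, the neuropilin that also binds VEGFC (ENSG00000118257, chr2:205681990-205798133, plus strand), was at 4.14, 4.23 and 4.36 FPKM in siC, at 3.98, 3.39 and 3.52 FPKM in siIGF2BP1, and at 4.30, 4.48 and 4.64 FPKM in siSRF. All siIGF2BP1 libraries were below all others, by a log2 difference of -0.22 against siC (95% interval -0.45 to 0.01, limma adjusted p = 0.184) and of -0.30 against siSRF (-0.52 to -0.08, limma adjusted p = 0.0510). The siSRF libraries overlapped with siC (0.07, -0.11 to 0.26, limma adjusted p = 0.541). The ratio of NRP1 to NRP2 was 6.02 ± 0.0384 in siC, 8.51 ± 0.602 in siIGF2BP1 and 6.72 ± 0.309 in siSRF (SD, n = 3 each), without overlap between any of the groups (exact permutation p = 0.1 for each pair).

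**Figure D3:**
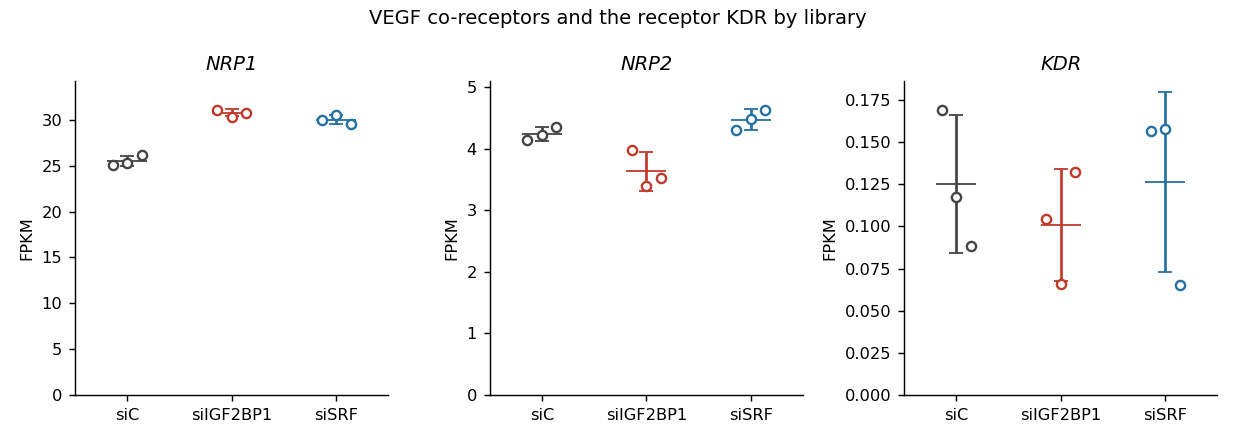
FPKM of NRP1, NRP2 and KDR in each library, with circles for the 3 libraries of a group, horizontal bars for means and error bars for the SD, on axes that begin at 0. NRP1 is higher in both knockdowns than in siC, NRP2 is lowest in siIGF2BP1, and the KDR values, which stand for 3 to 9 reads, overlap in all groups.

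ANGPTL4 was the member with the strongest rise in siSRF. It encodes a secreted inhibitor of lipoprotein lipase that hypoxia and PPAR ligands induce (ENSG00000167772, chr19:8363289-8374370, plus strand). It was at 0.488, 0.593 and 0.390 FPKM in siC, at 0.0525, 0.166 and 0 FPKM in siIGF2BP1, and at 5.99, 6.23 and 7.81 FPKM in siSRF. The siSRF level stands for 106, 141 and 143 reads against 8, 10 and 7 reads in siC and 1, 3 and 0 reads in siIGF2BP1, and the groups did not overlap. The log2 difference of siSRF against siC was 3.53 (standard error 0.19, limma adjusted p = 0.000294), and the summed reads gave a ratio of 13.6 (95% exact counting interval 9.09 to 21.3). For siIGF2BP1 against siC, the difference of -1.87 (95% interval -3.07 to -0.68) missed the threshold with a limma adjusted p of 0.0506. Its size depended on the pseudocount, at -0.48 with 1 FPKM and -3.36 with 0.01 FPKM, and a fit over all 9 libraries called it (limma adjusted p = 0.00731). The ratio of the summed reads was 0.141 (0.0356 to 0.408) there, and limma-voom on the recovered reads, which weights each value by its counting precision, called it (adjusted p = 0.000985). The difference of siIGF2BP1 against siSRF was -5.40 (standard error 0.38, limma adjusted p = 0.000175). With 4 reads in siIGF2BP1 in all, this size too depended on the pseudocount, at -2.83 with 1 FPKM and -7.12 with 0.01 FPKM, and the ratio of the summed reads was 0.0103 (95% exact counting interval 0.00280 to 0.0267).

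**Figure D4:**
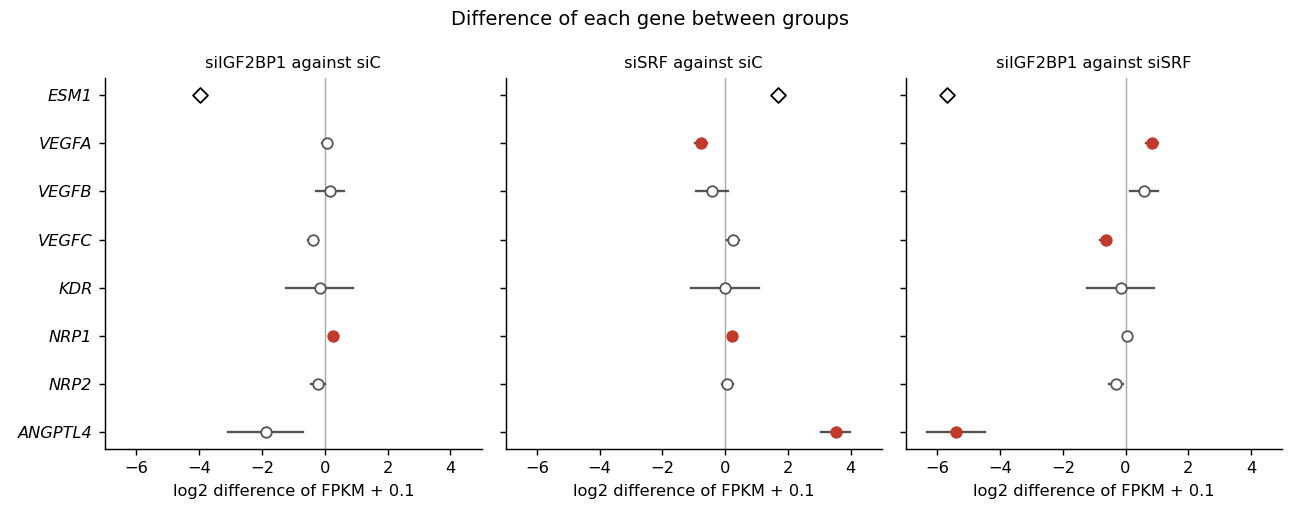
Difference of each gene in 3 comparisons on the scale of log2(FPKM + 0.1), with circles for the fitted value, lines for the 95% interval and red filling where the limma adjusted p is at most 0.01. The diamonds show ESM1, which was chosen for its change and has no interval, and FLT1 is left out for its 1 read or less per library.

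Of the 8 genes other than ESM1, 7 were tested and FLT1 was not. In siIGF2BP1 against siC, 1 gene passed an adjusted p of 0.01 with limma-trend (NRP1, higher), where 7.12% of all 22292 genes tested did. Limma-voom on the recovered reads called 2 (NRP1 and ANGPTL4), against 17.1% of all genes. The libraries of both groups did not overlap for 5 of the 7, against 35.6% of all genes. In siSRF against siC, 3 genes were called (VEGFA lower, NRP1 and ANGPTL4 higher), against 12.2% of 21857 genes. The same number was called by limma-voom, against 23.4% of all genes, and 4 genes did not overlap between the groups, against 39.9% of all genes. Between siIGF2BP1 and siSRF, 3 genes were called (VEGFA higher, VEGFC and ANGPTL4 lower in siIGF2BP1), against 20.0% of 22311 genes. Limma-voom called 5 there, with VEGFB and NRP2 in addition, against 31.0% of all genes, and 5 genes did not overlap, against 46.1% of all genes. Both comparisons with siC share the siC libraries, so that the values of a gene in them are not independent. Each gene that limma-trend called was also called by limma-voom. The counts over 7 genes were not tested against these shares.

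By level, the order of the 9 genes in siC was NRP1, ESM1, VEGFC, VEGFB, VEGFA, NRP2, ANGPTL4, KDR and FLT1, and only VEGFC and VEGFB overlapped among neighbours. In siIGF2BP1 the order was NRP1, VEGFB, VEGFC, VEGFA, NRP2, ESM1, KDR, ANGPTL4 and FLT1, with overlap of ANGPTL4 with both KDR and FLT1. In siSRF it was ESM1, NRP1, VEGFC, VEGFB, ANGPTL4, NRP2, VEGFA, KDR and FLT1, with overlap of VEGFB and ANGPTL4. VEGFA was thus above NRP2 in siC and below it in siSRF. These orders are by FPKM and depend on the authors' gene lengths. By summed reads in siC, VEGFA had 1838 (14431 bases), VEGFC 582 (2420 bases) and VEGFB 342 (1545 bases).

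Among 10379 other protein-coding genes whose level averaged 1 FPKM or more, the genes most like ESM1 were looked up with 2 measures, given as a description over 9 libraries that fall into 3 groups. The highest Pearson correlations of log2 levels were those of DDX56, HNRNPA2B1, LRRFIP2, ADAMTS6 and MTAP (r from 0.992 to 0.997). Their differences were much smaller than those of ESM1, from -0.79 to -0.39 in siIGF2BP1 and from 0.16 to 0.42 in siSRF on the log2 scale. The smallest distances of the log2 differences from siC, which take the size into account, were those of BCL2A1, an anti-apoptotic BCL2 family member, KRTAP2.4, KRTAP2.3, CCDC6 and TAGLN3 (from 2.21 to 4.06, where a gene without any change would be at 7.53). BCL2A1 had means of 3.0 ± 0.686, 0.356 ± 0.135 and 11.7 ± 0.541 FPKM in siC, siIGF2BP1 and siSRF (SD, n = 3 each). KRTAP2.4 and KRTAP2.3 are near-identical copies whose reads the counting could split, so their values are uncertain. ANGPTL4 had the 20th smallest distance (4.89). It reached the minimum of 1 FPKM only through siSRF (6.68 FPKM, against 0.490 in siC and 0.0727 in siIGF2BP1). Its siIGF2BP1 level rests on 4 reads in all, so the place of ANGPTL4 by either measure is a description only. The r with ESM1 was 0.92 for ANGPTL4, 0.97 for VEGFC, 0.87 for NRP2, -0.34 for NRP1, -0.66 for VEGFB and -0.76 for VEGFA. Such r are common here, as VEGFC ranked 191st, ANGPTL4 671st and NRP2 1217th of the 10379 genes by r. By distance, VEGFC ranked 904th and NRP2 2555th. Of each 5 genes, 3 remained when 1 FPKM was added in place of 0.1 FPKM.

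Some kinases and adaptors downstream of VEGF receptors passed the test in each knockdown. Of 48 genes of VEGF receptor signalling, 43 were tested against siC in each knockdown, with 5 lower and 2 higher in siIGF2BP1 (7.12% of all genes were called there), and 7 lower and 2 higher in siSRF (12.2% of all genes). Limma-voom called 10 lower and 4 higher in siIGF2BP1 (17.1% of all genes), and 15 lower and 8 higher in siSRF (23.4% of all genes). With a minimum of 1 FPKM, which 38 of the 48 genes reached over the 9 libraries, limma-trend called 13.5% and 22.4% of all genes. The counts of this list were not tested against these shares. The median log2 difference was -0.05 in siIGF2BP1 and -0.07 in siSRF, against 0.02 and 0.01 over all genes tested. MAPKAPK3, a kinase activated by p38, fell from 24.5 ± 0.763 FPKM in siC to 12.2 ± 0.795 FPKM in siIGF2BP1 and 15.5 ± 0.966 FPKM in siSRF (limma adjusted p = 0.000473 and 0.000943). MAP2K2, a kinase that activates ERK, fell from 28.5 ± 1.74 FPKM to 19.4 ± 1.00 and 17.9 ± 1.37 FPKM (limma adjusted p = 0.00332 and 0.00179). AKT1, the survival kinase, fell in siSRF, from 16.7 ± 0.611 to 10.0 ± 0.555 FPKM (limma adjusted p = 0.000743), and PTPN1, a phosphatase that dephosphorylates KDR, rose there from 29.3 ± 1.08 to 42.6 ± 1.80 FPKM (limma adjusted p = 0.00108; SD, n = 3 for all).

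Genes that VEGF induces or that mark endothelial tip cells were read in these tumor cells as a group of 23, of which 16 were tested in siIGF2BP1 and 15 in siSRF. In siIGF2BP1, 4 were lower and 4 higher (7.12% of all genes were called there). In siSRF, limma-trend called none lower (5 at an unadjusted p under 0.05, 3 by limma-voom) and 3 higher (12.2% of all genes were called). The medians were -0.33 and -0.19. COL4A1 and COL4A2, the chains of basement membrane collagen, rose in siIGF2BP1, from 6.71 ± 0.419 to 22.1 ± 0.259 FPKM and from 16.1 ± 1.2 to 49.2 ± 2.18 FPKM (limma adjusted p = 0.000101 and 0.000141). DUSP5, a phosphatase of ERK, fell in siIGF2BP1 from 50.7 ± 1.85 to 17.5 ± 1.78 FPKM (limma adjusted p = 0.000237) and was at 51.6 ± 1.43 FPKM in siSRF. PLAUR, the urokinase receptor, had the direction of ESM1 in both, from 24.1 ± 0.513 FPKM in siC to 13.5 ± 0.466 FPKM in siIGF2BP1 and 45.3 ± 2.65 FPKM in siSRF (limma adjusted p = 0.000357 and 0.000341; SD, n = 3 for all).

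The other partners of neuropilins, 12 class 3 semaphorins and plexins with 8 tested, had 1 lower and 2 higher genes in siIGF2BP1 (7.12% of all genes were called there). They had 2 lower and 2 higher in siSRF (12.2% of all genes were called), with medians of 0.23 and -0.37. SEMA3C, a ligand of both neuropilins, rose from 6.71 ± 0.240 FPKM in siC to 10.9 ± 0.291 FPKM in siIGF2BP1 and 27.1 ± 0.697 FPKM in siSRF (limma adjusted p = 0.00116 and 3.63e-05). SEMA3A, which binds NRP1, fell to 4.18 ± 0.240 FPKM in siIGF2BP1 and rose to 8.33 ± 0.278 FPKM in siSRF, from 6.31 ± 0.286 FPKM in siC (limma adjusted p = 0.00571 and 0.00710). Among the plexins that signal with neuropilins, PLXND1 rose in siIGF2BP1 from 7.17 ± 0.303 to 11.8 ± 0.412 FPKM and fell in siSRF to 5.18 ± 0.409 FPKM (limma adjusted p = 0.00121 and 0.00964), and PLXNA4 fell in siSRF from 13.2 ± 1.15 to 4.54 ± 0.101 FPKM (limma adjusted p = 0.000245; SD, n = 3 for all).

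Of 13 angiopoietins, angiopoietin-like genes, angiopoietin receptors and lipoprotein lipase, 10 were below 0.1 FPKM, and 6 had no read, LPL among them. Of the 3 tested, limma-trend called 2 lower in siIGF2BP1 and none in siSRF, where 7.12% and 12.2% of all genes were called. ANGPT1, at 0.561 ± 0.183 FPKM in siC and 1.12 ± 0.105 FPKM in siSRF, passed an unadjusted p under 0.05 and limma-voom in siSRF, with a limma-trend adjusted p of 0.0624. The medians of the 3 were -0.72 and 0.05. TIE1, an orphan receptor of the angiopoietin system, fell in siIGF2BP1 from 23.4 ± 2.39 to 14.1 ± 0.240 FPKM (SD, n = 3 each, limma adjusted p = 0.00265).

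Endocan carries a dermatan sulfate chain, and 18 of 22 enzymes that build chondroitin and dermatan sulfate were tested. They gave 1 lower and 1 higher gene in siIGF2BP1 (7.12% of all genes were called there). In siSRF, 2 were lower and 2 higher (12.2% of all genes were called), with medians of -0.02 and 0.03. CSGALNACT2, which starts chondroitin chains, rose from 2.47 ± 0.290 FPKM in siC to 4.67 ± 0.315 FPKM in siIGF2BP1 and 8.58 ± 0.706 FPKM in siSRF (limma adjusted p = 0.00521 and 0.000457). In siSRF, CHPF, a polymerizing factor, fell from 30.9 ± 3.26 to 12.4 ± 0.928 FPKM, CHST14, the sulfotransferase of dermatan sulfate, fell from 10.6 ± 0.286 to 5.14 ± 0.222 FPKM, and UST, a uronyl sulfotransferase, rose from 6.47 ± 0.240 to 10.3 ± 0.292 FPKM (limma adjusted p = 0.000508, 0.000368 and 0.000922). Of 11 proteoglycans with such chains, 6 were tested, with 1 lower and 1 higher in siIGF2BP1 and 1 higher in siSRF (2 there by limma-voom). Here too, 7.12% and 12.2% of all genes were called by limma-trend, and the medians were -0.17 and 0.05. SRGN, the intracellular proteoglycan serglycin, had the direction of ESM1, from 223 ± 14.3 FPKM in siC to 136 ± 6.79 FPKM in siIGF2BP1 and 433 ± 8.04 FPKM in siSRF (limma adjusted p = 0.00129 and 0.000341). VCAN, the matrix proteoglycan versican, rose in siIGF2BP1 from 1.94 ± 0.199 to 4.93 ± 0.432 FPKM (limma adjusted p = 0.00163; SD, n = 3 for all).

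**Figure D5:**
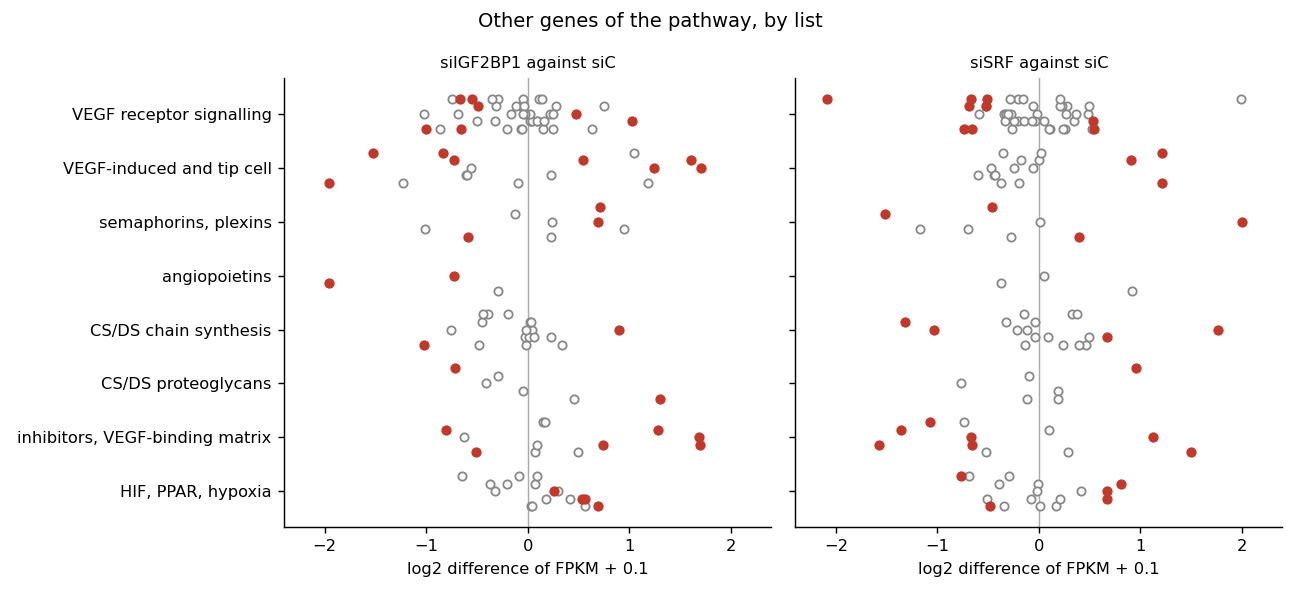
Log2 difference of FPKM + 0.1 for each tested gene of 8 lists in siIGF2BP1 and in siSRF against siC, with 1 circle per gene and red filling where the limma adjusted p is at most 0.01. Called genes lie on both sides of 0 in most lists, and those of receptor signalling are mostly below 0.

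Of 14 inhibitors of angiogenesis and matrix proteins that bind VEGF, 12 were tested in siIGF2BP1, with 2 lower and 4 higher, and 11 in siSRF, with 5 lower and 2 higher (medians 0.16 and -0.66), where 7.12% and 12.2% of all genes were called. These counts were not tested against the shares over all genes. THBS1, the gene of thrombospondin, rose in siIGF2BP1 from 44.3 ± 1.84 to 108 ± 3.20 FPKM (limma adjusted p = 0.000101). SPARC, a matrix protein that binds VEGFA, rose in siIGF2BP1 from 74.5 ± 5.27 to 241 ± 17.1 FPKM and fell in siSRF to 46.8 ± 2.84 FPKM (limma adjusted p = 0.000154 and 0.00157). ADAMTS1, a protease that binds VEGFA, had the direction of ESM1, from 26.7 ± 1.60 FPKM in siC to 18.6 ± 0.424 FPKM in siIGF2BP1 and 75.4 ± 1.91 FPKM in siSRF (limma adjusted p = 0.00259 and 6.26e-05). TIMP3, which blocks the binding of VEGFA to KDR, fell in siSRF from 34.8 ± 1.17 to 16.5 ± 0.640 FPKM (limma adjusted p = 0.000172; SD, n = 3 for all).

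Hypoxia-inducible factors and PPARs are known regulators of VEGFA and ANGPTL4. Of 20 such factors and hypoxia-induced genes, 17 were tested. In siIGF2BP1, limma-trend called none lower (4 at an unadjusted p under 0.05, 2 by limma-voom) and 4 higher (7.12% of all genes were called there). It called 2 lower and 3 higher in siSRF (12.2% of all genes were called), with medians of 0.09 and -0.02. HIF1A rose from 38.2 ± 1.40 FPKM in siC to 56.4 ± 0.308 FPKM in siIGF2BP1 and 61.0 ± 2.46 FPKM in siSRF (limma adjusted p = 0.000713 and 0.000508). BNIP3, a mitophagy receptor, rose from 19.8 ± 0.169 to 23.7 ± 0.494 and 31.7 ± 1.48 FPKM (limma adjusted p = 0.00883 and 0.000495). EGLN1, the hydroxylase that marks HIF1A for degradation, rose in siSRF from 13.2 ± 1.03 to 23.1 ± 1.18 FPKM, and SLC2A1, the glucose transporter, fell there from 26.4 ± 0.219 to 18.9 ± 0.891 FPKM (limma adjusted p = 0.000937 and 0.00137; SD, n = 3 for all). The called genes of the list went both ways in siSRF. Their part in the changes of VEGFA and ANGPTL4 was not tested.

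Since ESM1, KDR and FLT1 are best known from endothelial cells, 12 endothelial markers were read as well. ERG and CLDN5 had no read in any library, and 6 of the 12 were below 0.1 FPKM, VWF and TEK among them. TIE1, CDH5 and ROBO4 carried 97.2% of the summed level, which was between 33.6 and 41.8 FPKM in siC, 33.2 and 34.9 FPKM in siIGF2BP1, and 36.2 and 37.8 FPKM in siSRF. CDH5, the cadherin of endothelial junctions, rose in siIGF2BP1 from 9.38 ± 1.24 to 15.2 ± 1.02 FPKM (SD, n = 3 each, limma adjusted p = 0.00873), where TIE1 fell. Of the 6 tested, 1 was lower and 1 was higher in siIGF2BP1 (7.12% of all genes were called there). Limma-trend called none in siSRF (2 lower at an unadjusted p under 0.05, 1 by limma-voom), where 12.2% of all genes were called. The part of these markers in the ESM1 result was not tested.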

How the data were processed

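Per the labels and the study's methods, the authors clipped reads with cutadapt 1.14, aligned them to GRCh38 (hg38) with HISAT2 2.1.0, counted them on Ensembl genes with featureCounts 1.5.3 and scaled libraries by TMM in edgeR 3.18.1. The library kit keeps the strand, but the strand setting of the counting is not given in the sources used here. VEGFA, VEGFC, KDR, NRP1 and NRP2 overlap a gene on the other strand in GENCODE, a later annotation than the one counted on. The authors deposited FPKM values per library in 2 tables with identical siC values, beside their own fold changes, p-values and FDR, which were not used. Multiplied by gene length, 100% of the FPKM values were whole multiples of the worth of 1 read within 0.01 read, which gave back the reads.

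From these values, log2(FPKM + 0.1) was fitted with limma 3.58.1 in R 4.3.3, using eBayes with its trend option (limma-trend), for every gene that averaged 0.1 FPKM or more in a comparison. The pseudocount makes the change of low genes look smaller than it is. Benjamini-Hochberg adjustment covered every gene fitted, and a gene was called at an adjusted p of at most 0.01. Samples were grouped by the siRNA in their labels. Since the files hold FPKM, limma-voom on recovered reads was run as an alternative. Other alternatives were pseudocounts of 1 and 0.01 FPKM, other filters, median-ratio rescaling, a replicate block, 1 fit over all 9 libraries, leaving out each library, and, chosen after values were seen, taking out GC content and gene length. On simulated data, both fits gave back the sizes and directions of changed genes. Limma-trend called almost none of them where limma-voom called most, and its few calls were not mainly changed genes. The simulation changed fewer genes than were called in these data, at 1 dispersion for all genes. Its share of missed genes therefore does not carry over to them. A missed threshold in limma-trend is still no evidence that a gene did not change. Same-numbered libraries did not deviate together (correlation of deviations from the group means between -0.044 and 0.019), and the labels give no batch or date. Intervals of read ratios are exact binomial at 95%. One marker gene is not reported here. The members and gene lists were chosen with earlier results of these data known. From each list, at most 4 genes called in either knockdown that averaged 1 FPKM or more were named, by the smallest adjusted p. The genes most like ESM1 were the 5 with the highest correlation and the 5 with the smallest distance. Other genes named were the targeted genes, markers and list members at or near 0. Chosen after values were seen were PGF, ANGPT1, ANGPT2 and VIPR1, the next after ESM1 among oppositely called genes.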

Additional observations from a re-analysis of the deposited data

Results flagged for a closer look

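For 3 of the 7 genes tested, the effects of both knockdowns differed by a direct test of siIGF2BP1 against siSRF. The same test called 20.0% of all 22311 genes, and 46.1% of all genes did not overlap between the 2 groups. VEGFA was higher in siIGF2BP1 by 0.84 on the log2 scale (limma adjusted p = 0.00046), VEGFC differed by -0.64 (limma adjusted p = 0.000917), and ANGPTL4 differed by -5.40 (limma adjusted p = 0.000175), both lower in siIGF2BP1, each with all 3 libraries of one group on one side of the other. The choice of ANGPTL4 may have rested on this difference.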

How the results depend on the processing

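With 3 libraries per group, no single-gene permutation test could go below 0.1, and KDR and FLT1 were too shallow for a comparison. The number of genes called in siIGF2BP1 against siC was 1 in the reported fit, 2 with a minimum of 1 FPKM, 2 with limma-voom on recovered reads, 3 with 1 limma fit over all 9 libraries and 0 without trends along GC and length (4 genes at an unadjusted p under 0.05), and leaving out a library gave 0 to 0 (3 to 4 at an unadjusted p under 0.05). The shares of all genes called were, in the same order, 7.12%, 13.5%, 17.1%, 11.1% and 8.64%. With a library left out they were between 1.97% and 3.31%. Between siIGF2BP1 and siSRF, limma-voom called 5 instead of 3. With a replicate block, limma called 0 genes in siIGF2BP1 (3 at an unadjusted p under 0.05) and 1 in siSRF (reported fits 1 and 3), since NRP1 (limma adjusted p = 0.0485 and 0.0413) and VEGFA in siSRF (limma adjusted p = 0.0150) missed the threshold, but the numbers did not pair the libraries. Over all genes, the block called 91, 501 and 2075 genes in siIGF2BP1, siSRF and between them, against 1588, 2665 and 4460 in the reported fits, and limma-voom called 3805, 5123 and 6912. Leaving out a library gave 2 calls in siSRF and 3 between the knockdowns in each case. Of all genes, between 4.33% and 8.22% were then called in siSRF, and between 12.9% and 15.1% between the knockdowns. Directions turned only for differences that were never called. VEGFB in siIGF2BP1 was at -0.0104 without the third siC library (range -0.0104 to 0.285 over libraries left out). KDR in siSRF was at 0.00133 with a pseudocount of 1 and between -0.126 and 0.208 with a library left out. NRP1 between the knockdowns was at -0.00479 without trends along GC and length. The causes were not tested. Of 311 values of tested genes under alternatives, 283 kept direction and side of the threshold. The added calls in siIGF2BP1 were VEGFC with a minimum of 1 FPKM, ANGPTL4 with limma-voom, and both in the fit over all 9 libraries. On simulated data, limma-trend called far fewer of the changed genes than limma-voom, in a setting with fewer changed genes than were called here. The few calls of limma-trend in that setting were not mainly changed genes.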
